A study of Mus musculus with 2 samples.

Results

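The 10 genes described here encode the mTOR kinase, its complex partners and the proteins that hold mTORC1 back. They are Mtor, Rptor, Rictor, Mlst8 and Deptor, the sestrin genes Sesn1, Sesn2 and Sesn3, Ddit4, whose product is called REDD1, and Tsc2. They were taken by symbol from a table of 25749 Ensembl mouse genes, and all 10 were found. Transcripts were measured by RNA-seq in the mouse embryonic stem cell line E14.1. The group called WT carried wild-type AHCY and the group called T136A carried AHCY with alanine in place of a threonine. AHCY is the enzyme that clears S-adenosylhomocysteine, which methyltransferases release as they use S-adenosylmethionine. Each group had 1 library, so no spread between cultures could be measured. How the T136A line was made, and whether it is a single clone, is not given in the sources used here. "Higher" and "lower" below compare these libraries and have no replicate check.

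mTOR is a protein kinase that works in 2 complexes. With Raptor (Rptor) it forms mTORC1, which promotes protein synthesis and restrains autophagy when amino acids and energy suffice; with Rictor it forms mTORC2, which phosphorylates AKT. Amino acids act on mTORC1 through Rag GTPases at the lysosome, growth factors act through the TSC complex and Rheb, and sestrins and REDD1 are stress-induced proteins that dampen these routes.

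Sesn2 and Ddit4, the brakes with the highest transcript levels, were lower in the T136A library, while another sestrin, Sesn1, was higher. The DNA just before the start sites of these 3 genes is shown because Sesn2 and Sesn1 had the lowest and the highest ratio of the 10, and Ddit4 the highest level. The sequences come from RefSeq on the GRCm38.p6 build, whose table held 9 of the 10 genes (Deptor was not in it), with Ensembl exon bases left out. They are written 5′ to 3′ on the gene's strand, with CCAAT (or ATTGG, its other strand) and ACGTG, the core of a hypoxia response element, in capitals.
Sesn2, chr4:132510502-132510706, minus strand: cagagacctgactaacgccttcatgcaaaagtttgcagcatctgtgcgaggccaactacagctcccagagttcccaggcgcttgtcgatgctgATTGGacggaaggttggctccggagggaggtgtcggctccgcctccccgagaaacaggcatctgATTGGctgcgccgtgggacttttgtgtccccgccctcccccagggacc
Ddit4, chr10:59951835-59952020, minus strand: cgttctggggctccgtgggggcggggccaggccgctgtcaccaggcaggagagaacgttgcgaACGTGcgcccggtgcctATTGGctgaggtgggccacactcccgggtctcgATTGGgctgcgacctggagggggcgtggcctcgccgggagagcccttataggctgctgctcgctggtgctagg
Sesn1, downstream start, chr10:41887189-41887438, plus strand: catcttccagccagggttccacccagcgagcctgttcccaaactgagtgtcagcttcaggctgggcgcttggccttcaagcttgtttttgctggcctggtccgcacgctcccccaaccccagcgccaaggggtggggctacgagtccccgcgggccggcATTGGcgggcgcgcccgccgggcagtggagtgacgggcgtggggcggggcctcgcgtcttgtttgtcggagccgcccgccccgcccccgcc

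Motifs were searched on both strands of the 250 bases before each start. TGATGNAA, the composite element bound by ATF4 with C/EBP partners, was in 0 of the 10 windows of these genes and in 3.45% of the 32851 windows in the table. Of the 32 windows that belong to the ATF4 target list described below, 9 held it. GTAAACA, the FOXO element, was likewise in 0 of the 10 windows, against 3.17% of all. ACGTG was in the windows of Ddit4 and Rptor, and in 16.6% of all windows. CCAAT was in 7 of the 10 windows, those of 6 genes, and in 33.8% of all windows. The windows of these genes held from 9 (Rptor) to 40 (Rictor) CG pairs, against a median of 6 over all windows. The shares were not matched for this, and its part in them was not tested. The searched motifs do not overlap each other in the printed stretches, and a match or its absence describes these letters only. Sesn1 has a second start upstream in RefSeq, and values per gene cannot show which start was used.

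Levels are given in RPKM, reads scaled to exon length and to the total reads of the library. Read numbers were recovered from these values and give a 95% interval for each fold, which covers counting error only. Mtor (ENSMUSG00000028991, GRCm38 chr4:148448611-148557683), the kinase shared by both complexes, measured 8.93 RPKM in WT and 8.49 in T136A. The 1580 and 1579 reads behind these values gave a fold of 0.951 (0.886 to 1.02), an interval that includes 1. Mlst8 (ENSMUSG00000024142, chr17:24473551-24479078), the small subunit that binds the kinase domain in both complexes, was at 2.12 and 2.86 RPKM. Its fold of 1.35 (1.07 to 1.71) was computed from 125 and 177 reads, the smallest numbers that fit its values and the fewest of the 10 genes. Exons of Bricd5 on the opposite strand cover 22.5% of the exon bases of Mlst8, and counting by strand is not stated, so reads of the pair cannot be told apart.

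Of the subunits that define the complexes, Rictor was lower, while Rptor differed little. Rptor (ENSMUSG00000025583, chr11:119602905-119899576), the substrate-binding scaffold of mTORC1, measured 6.99 RPKM in WT and 7.53 in T136A, a fold of 1.08 (1.01 to 1.15). Rictor (ENSMUSG00000050310, chr15:6708379-6800401), the scaffold of mTORC2, was at 1.87 and 1.23 RPKM, 1.51-fold lower (1.27 to 1.81). The Rptor level was thus 3.75 times the Rictor level in WT and 6.11 times it in T136A. Deptor (ENSMUSG00000022419, chr15:55112317-55259271), an inhibitor that binds mTOR in either complex, was at 1.64 and 1.52 RPKM, with a fold of 0.929 (0.777 to 1.11).

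The 3 sestrin transcripts did not share a direction. Sesn2 (ENSMUSG00000028893, chr4:132492032-132510501), a leucine sensor that binds GATOR2 and is induced by ATF4, measured 80.4 RPKM in WT and 38.2 in T136A. The T136A level was 0.476 times the WT level (0.453 to 0.499), or 2.10-fold lower, from 4892 and 2445 reads. Sesn1 (ENSMUSG00000038332, chr10:41809935-41908424), a p53-responsive member of the family, measured 3.64 RPKM in WT and 7.40 in T136A. It was 2.03-fold higher (1.75 to 2.37), from 254 and 542 reads. Sesn3 (ENSMUSG00000032009, chr9:14275067-14333101), a FOXO-responsive member, was near the limit of 1 RPKM, at 1.34 and 0.776 RPKM. It was 1.72-fold lower (1.45 to 2.05), and passed the minimum of 1 RPKM through WT alone.

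Summed over the family, sestrin transcripts came to 85.4 RPKM in WT and 46.4 in T136A. Sesn2 made up 94.2% of that sum in WT and 82.4% in T136A, and Sesn1 4.27% and 15.9%. The Sesn2 level was 22.1 times the Sesn1 level in WT and 5.17 times it in T136A. Sesn2 remained the leading sestrin in either library.

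Ddit4 (ENSMUSG00000020108, chr10:59949669-59951834) encodes REDD1, which restrains mTORC1 through the TSC complex. It had the highest level of the 10 genes in both libraries, at 99.7 RPKM in WT and 59.7 in T136A, 1.67-fold lower (1.58 to 1.77). Tsc2 (ENSMUSG00000002496, chr17:24595816-24632630), the GTPase-activating subunit that switches Rheb off, was at 14.9 and 14.2 RPKM. Its fold of 0.952 (0.887 to 1.02) had an interval that includes 1. The Ddit4 level was 6.68 times the Tsc2 level in WT and 4.20 times it in T136A. Exons of Pkd1, at 0.746 and 0.714 RPKM, cover 7.20% of the exon bases of Tsc2 on the opposite strand.

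**Figure D1:**
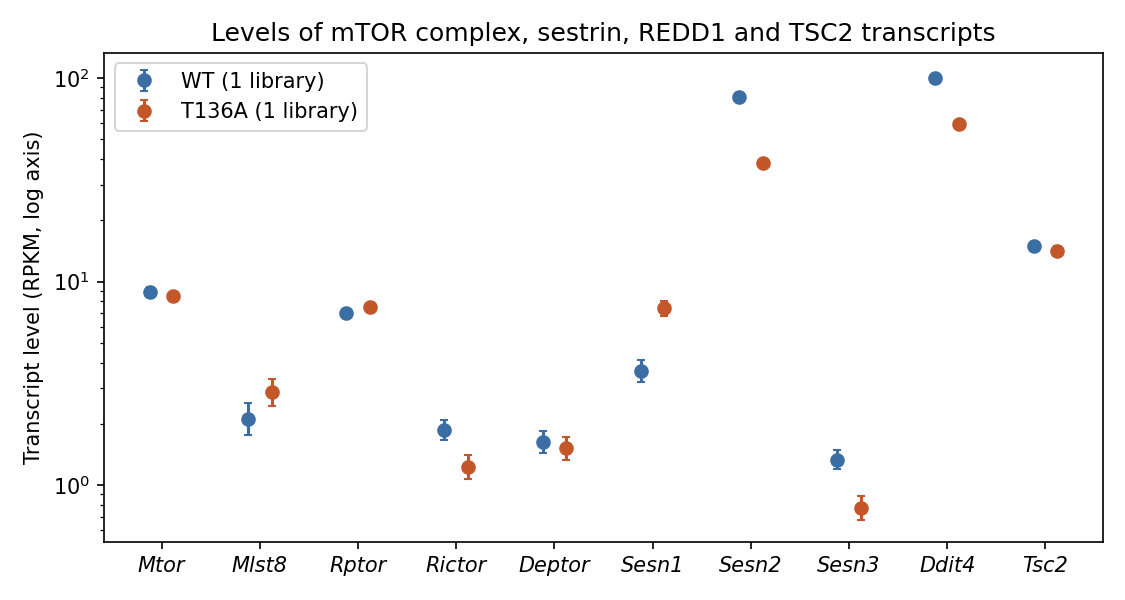
Points give the level of each transcript in RPKM on a log axis, in the WT library (blue) and the T136A library (orange), and bars give the 95% Poisson interval of the reads. Ddit4 and Sesn2 sit highest in both libraries; Sesn1 is the gene whose T136A point lies farthest above its WT point, at 7.40 against 3.64 RPKM.

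Ordered by level in WT, Ddit4 was followed by Sesn2, Tsc2, Mtor, Rptor, Sesn1, Mlst8, Rictor, Deptor and Sesn3. The counting intervals of neighbours overlapped for Mlst8 and Rictor, for Rictor and Deptor, and for Deptor and Sesn3. Such overlap is not a test of order, and no interval was computed for the ratio between genes. In T136A the order was the same except that Deptor stood above Rictor. There the intervals of Rptor (7.19 to 7.88 RPKM) and Sesn1 (6.79 to 8.05 RPKM) overlapped, as did those of Deptor and Rictor. For Rictor, Mlst8 and Tsc2 the authors' values did not give whole reads with the GENCODE M21 exon length. The smallest length that did was 9311 bases for Rictor, against 16930 in GENCODE, so their place among the levels depends on that model, while the fold between libraries does not.

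To place the 10 genes among all others, the log2 ratio was taken after adding 1 RPKM to each value, which shrinks the ratios of weak transcripts. A gene was counted when it reached 1 RPKM in either library and lay 2-fold apart or more on this scale. All 10 genes reached 1 RPKM, 1 was at least 2-fold lower (Sesn2, log2 ratio -1.05) and 0 were at least 2-fold higher. Over all 12320 genes that reached 1 RPKM, 3.10% were at least 2-fold lower and 3.13% at least 2-fold higher. The median log2 ratio of the 10 genes was -0.07, and that of all genes was -0.03. Only 2.58% of all genes had a lower log2 ratio than Sesn2, and 7.15% a lower one than Ddit4 (-0.73). At the other end, 4.76% had a higher one than Sesn1 (0.85). Mtor, Tsc2 and Deptor lay in the middle of all genes, with 47.0% to 47.1% of genes below them.

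Both 2-fold calls turn on the added constant. With 0.1 added, or with nothing added, Sesn1 also counted as at least 2-fold higher (log2 ratios of 1.00 and 1.02); with 5 added, Sesn2 no longer counted as at least 2-fold lower (-0.98). By the counting interval, 4 of the 10 genes (Sesn2, Ddit4, Sesn3 and Rictor) were below a fold of 1 and 3 (Sesn1, Mlst8 and Rptor) above it. Of the 12295 genes with recovered reads, 36.9% were below and 31.9% above, so an interval that excludes 1 was common at this depth.

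**Figure D2:**
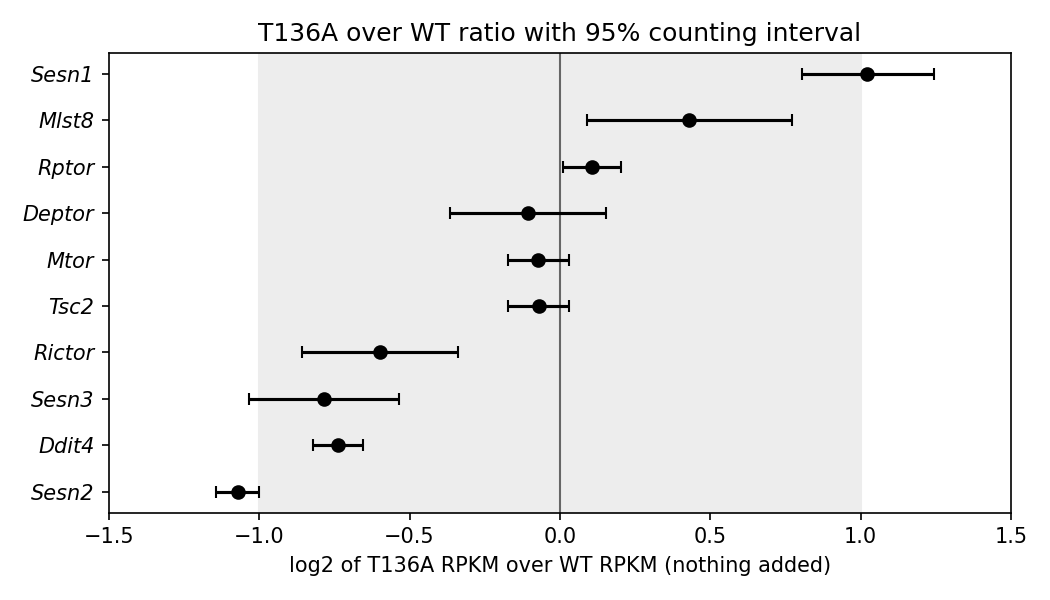
Points give log2 of the plain T136A over WT ratio for each gene, bars its 95% counting interval, and the grey band marks less than 2-fold. Sesn1 and Sesn2 lie at opposite ends, and the bars of Mtor, Tsc2 and Deptor cross 0.

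The rest of the pathway was described with 8 lists of 79 genes, of which 75 reached 1 RPKM. Of these 75, 3 were at least 2-fold lower (Itfg2, Eif4ebp1 and Grb10) and 1 at least 2-fold higher (Castor1), beside the backgrounds of 3.10% and 3.13% above. Their median log2 ratio was 0.01. With 0.1 or nothing added 5 were lower, Rragd among them. By the counting interval 31 (41.3%) were below a fold of 1 and 25 (33.3%) above it, beside 36.9% and 31.9% of all genes.

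Among subunits and assembly factors of the complexes, 0 of 6 were at least 2-fold apart, beside 3.10% lower and 3.13% higher over all genes. Akt1s1, which encodes the mTORC1 inhibitor PRAS40, was lowest, at 25.2 RPKM in WT and 16.4 in T136A. Prr5, a subunit of mTORC2 also called Protor-1, was highest, at 11.6 and 19.3 RPKM, or 1.66-fold higher (1.46 to 1.88). The mTORC2 genes therefore differed among themselves, with Rictor lower and Prr5 higher. Mapkap1, with a fold of 1.07 (0.968 to 1.18), and Prr5l, at 0.896 (0.699 to 1.15), had intervals that include 1. These mTORC2 genes are outside the naming rule given below.

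Of 13 genes of the Rag GTPases, Ragulator and folliculin, 0 were 2-fold apart or more, beside 3.10% lower and 3.13% higher over all genes. The list's median was -0.28. A log2 ratio below 0 was found for 9 of the 13, and for 52.6% of all genes. Rragd, one of the alternative partners of RagA and RagB, was lowest, at 4.47 and 2.16 RPKM, 2.07-fold lower in plain RPKM (1.74 to 2.46). Folliculin, Flcn, which activates RagC and RagD, was 1.57-fold lower (1.46 to 1.69), and its partner Fnip1 was at 5.98 and 3.32 RPKM. Fnip2, the paralog of Fnip1, had a log2 ratio of -0.03. Flcn, Fnip1 and Fnip2 were picked after the values were seen. Lamtor4, a Ragulator subunit, was highest, at 19.1 and 28.4 RPKM.

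The GATOR, KICSTOR and sensor list held both ends of the pathway. Castor1, the arginine sensor that binds GATOR2, measured 7.04 RPKM in WT and 23.3 in T136A, 3.31-fold higher (2.82 to 3.90). Itfg2, a subunit of KICSTOR, which anchors GATOR1 at the lysosome, was at 14.3 and 3.07 RPKM, 4.65-fold lower (4.17 to 5.19). Samtor, the S-adenosylmethionine sensor that inhibits mTORC1 through GATOR1, was at 2.97 and 3.12 RPKM, a fold of 1.05 (0.893 to 1.23). The other 14 of the 17 genes in this list were within 2-fold on the log2 scale, and the list's median was -0.10. Transcripts of proteins that sense the same amino acid did not share a direction. For arginine, Castor1 was higher, as given above, and Slc38a9, the lysosomal arginine sensor of the Rag list, was 1.42-fold lower (1.22 to 1.64). Castor2, the paralog of Castor1, had a fold of 1.03 (0.837 to 1.28), an interval that shows no direction. For leucine, Sesn2 was lower and Sesn1 higher, as given above, and Lars1, the leucyl-tRNA synthetase, was 1.83-fold lower (1.76 to 1.90). Castor2, Slc38a9 and Lars1 were picked outside the naming rule given below.

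In the branch from TSC to Rheb, Tsc1, the partner that stabilises TSC2, was at 2.69 and 2.88 RPKM. The complex's other subunit, Tbc1d7, was at 9.14 and 4.81 RPKM, 1.90-fold lower (1.67 to 2.17). Rheb, the GTPase that activates mTORC1, was at 24.4 and 14.2 RPKM, 1.71-fold lower (1.62 to 1.81), and its paralog Rhebl1 at 13.9 and 15.1 RPKM. The activator Rheb and the brakes Ddit4 and Sesn2 were therefore lower in the same library. Ddit4l, the paralog of Ddit4, was at 3.80 and 5.59 RPKM, 1.47-fold higher (1.22 to 1.77).

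For AMPK and its activators, 0 of 8 were at least 2-fold apart, beside 3.10% lower and 3.13% higher over all genes. They ran from Prkab2 (4.55 and 3.26 RPKM) to Cab39 (17.1 and 22.5 RPKM). On the route from the insulin receptor to AKT, 0 of 9 genes at or above 1 RPKM were at least 2-fold apart. Counts of 0 in lists this short lie near the shares over all genes. The kinase gene Akt2 was highest, at 6.79 and 12.7 RPKM, 1.87-fold higher (1.72 to 2.03).

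Among 17 substrates and effectors of mTORC1 at or above 1 RPKM, 2 were at least 2-fold lower and 0 higher. Over all genes 3.10% were at least 2-fold lower and 3.13% higher. Eif4ebp1, the translation repressor 4E-BP1, was at 323 and 143 RPKM, 2.26-fold lower (2.19 to 2.33). Grb10, an adaptor that damps insulin signalling, was at 32.2 and 13.9 RPKM, 2.32-fold lower (2.21 to 2.44). Pdcd4, a translation repressor that S6 kinase marks for removal, was highest, at 5.34 and 10.2 RPKM. Eif4ebp1 made up 87.3% of the summed 4E-BP transcripts in WT and 70.7% in T136A.

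**Figure D3:**
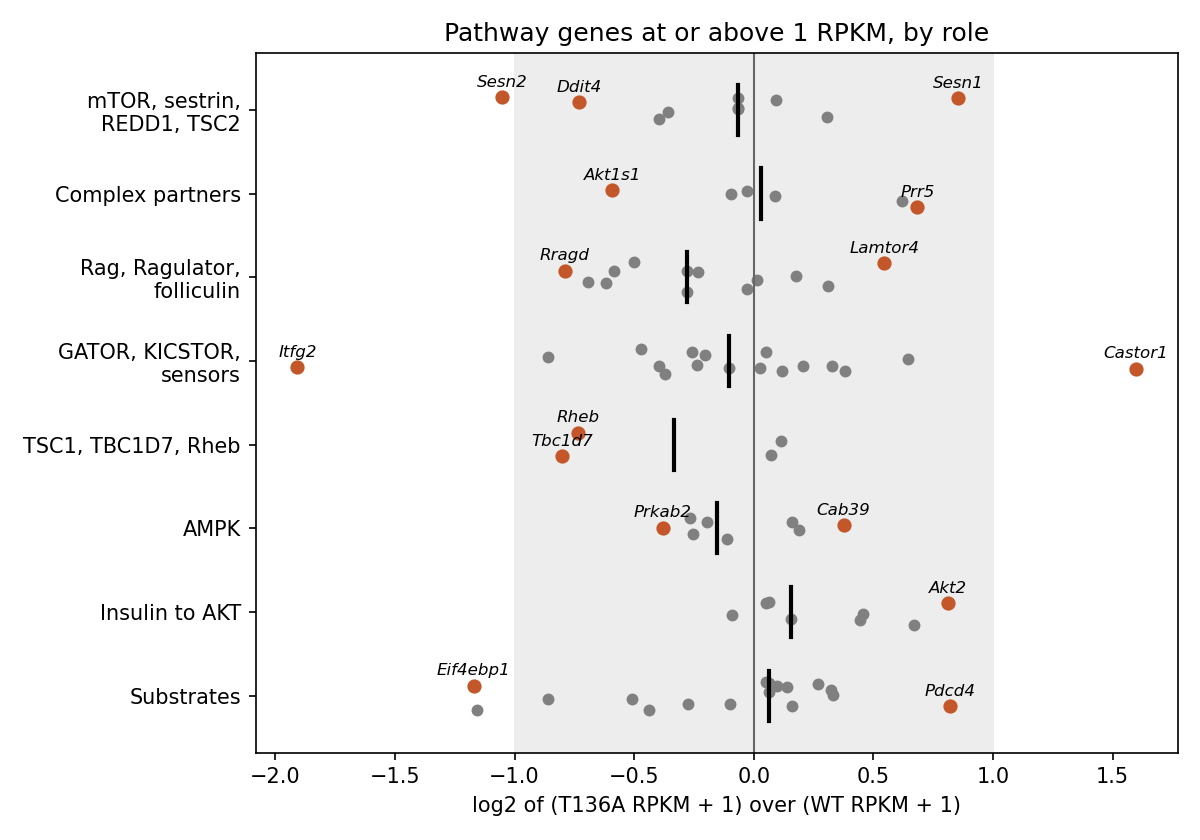
Each point is a gene at or above 1 RPKM, placed by log2 of (T136A RPKM + 1) over (WT RPKM + 1), in rows by role; black bars are row medians, orange points are named, and grey marks less than 2-fold. Itfg2 and Castor1 form the ends, and the row medians lie between -0.33 and 0.16; Ddit4l and 1 other gene are not drawn.

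Sestrins and Ddit4 are known targets of several transcription factors, and their values were set beside those of 5 target lists. Of 30 ATF4 targets at or above 1 RPKM, Atf4 included, 26 were at least 2-fold lower and 0 higher, with a median of -1.58. Over all genes 3.10% were at least 2-fold lower and 3.13% higher. Without Sesn2 and Ddit4 the count was 25 of 28 and the median -1.61. Atf3, Fgf21, Vldlr and Cebpb reached 1 RPKM in WT alone, so the filter fixed their ratios below 0. Sesn2 and Ddit4 were among the mildest of the list: 23 of its genes had a lower log2 ratio than Sesn2, and 27 a lower one than Ddit4, which left Cebpb (-0.57) and Wars1 (-0.42) above it. The place of Cebpb comes from the added constant. From 31 and 13 reads its plain log2 ratio was -1.33, below Ddit4 (-0.74). With nothing added 25 genes lay below Sesn2 and 28 below Ddit4. Exons of Tmem189, at 8.82 and 9.32 RPKM, cover 20.7% of the exon bases of Cebpb on the opposite strand. Atf4 itself was at 306 and 105 RPKM, and its targets Ddit3 at 30.3 and 7.39 RPKM and Trib3 at 97.3 and 17.0 RPKM. Chac1 (-4.41) and Nupr1 (-4.03) were lowest. Eif4ebp1, named above, belongs to this list too.

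Of 24 p53 targets, 2 were at least 2-fold lower and 1 higher, beside 3.10% and 3.13% of all genes. The list's median was 0.00. Sesn2 and Pltp (both -1.05) were lowest, and their order turned with 0.1 or nothing added (plain log2 ratios of -1.07 for Sesn2 and -1.10 for Pltp). Exons of Ctsa, at 22.6 and 12.8 RPKM, cover 19.3% of the exon bases of Pltp on the opposite strand. Reads of Pltp and Ctsa there cannot be told apart. Ddit4 was lower than 20 genes of the list. Sesn1 was second from the top, below Pmaip1 (1.19). Members of the list thus stood at both ends of it.

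Of 16 FOXO targets, 3 were at least 2-fold lower and 0 higher, beside 3.10% and 3.13% of all genes. With nothing added, 4 were lower and 1 (Sesn1) higher. The list's median was -0.15. Bcl6 and Sesn3 reached 1 RPKM in WT alone, so the filter fixed their ratios below 0. Sesn1 had the highest log2 ratio, ahead of Cited2 (0.74), while Sesn3 (-0.40) and Rictor (-0.36) lay in the lower part. The thioredoxin inhibitor Txnip (-1.53) and the stress gene Gadd45a (-1.47) were lowest with 1 RPKM added. With 0.1 or nothing added Gadd45a was below Txnip (plain log2 ratios of -1.62 and -1.54).

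Most hypoxia targets lay on the other side of 0 from Ddit4. Of 22 genes, 18 were above 0, beside 47.4% of all genes, and the median was 0.53. Only 1 was at least 2-fold higher (Ldha, 1.45), beside 3.13% of all genes. Ndrg1 and Ankrd37 reached 1 RPKM in T136A alone, so the filter fixed their ratios above 0. Ddit4 (-0.73) and Pfkfb3 (-0.62) were lowest with 1 RPKM added; with 0.1 or nothing added Pfkfb3 was below Ddit4 (plain log2 ratios of -0.83 and -0.74). The upper end turned on the constant too. With 1 added, Bnip3l (0.98) was second from the top, whereas in plain log2 ratio the weak transcripts Ndrg1 (2.08) and Ankrd37 (1.69) stood above Ldha (1.46), and 5 genes were at least 2-fold higher. Of 11 glucocorticoid targets 9 were below 0, beside 52.6% of all genes, and the median was -0.31. Only 1 was at least 2-fold lower, Tsc22d3 (-2.39), beside 3.10% of all genes, with Mt1 (-0.81) and Ddit4 next. Errfi1 (0.03) and Per1 (0.02) were highest. Tsc22d3 and Cdkn1c reached 1 RPKM in WT alone, so the filter fixed their ratios below 0.

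**Figure D4:**
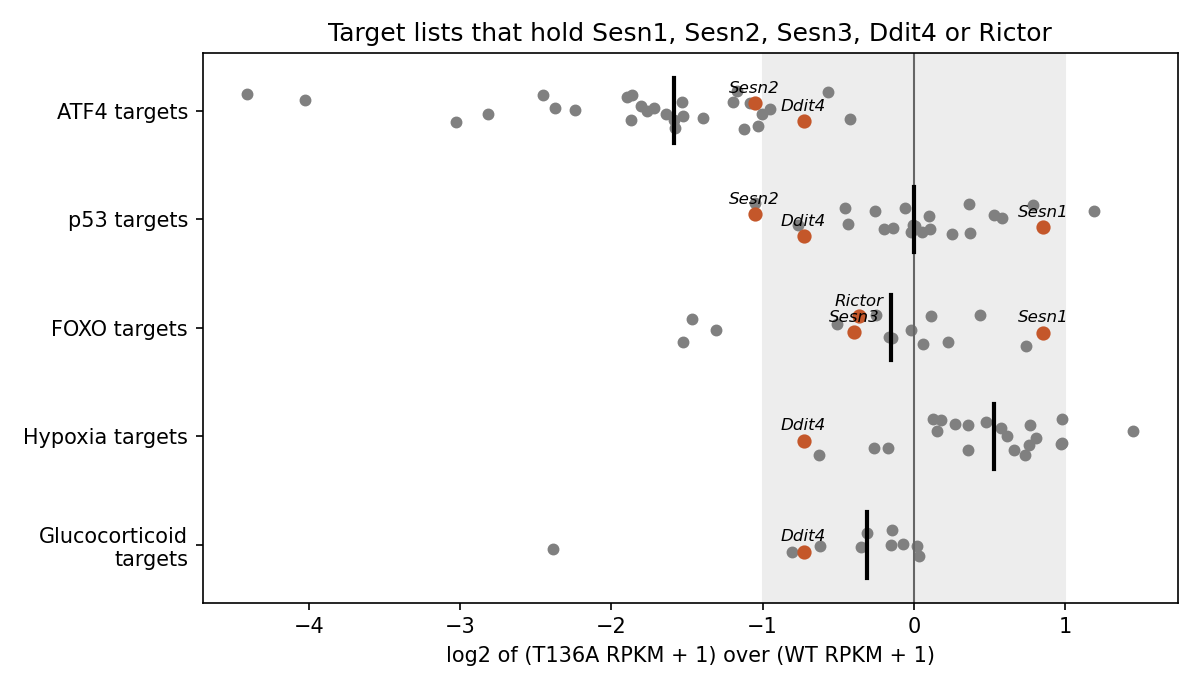
Each point is a target gene at or above 1 RPKM, placed by log2 of (T136A RPKM + 1) over (WT RPKM + 1), in rows by transcription factor; orange points are sestrins, Ddit4 and Rictor, black bars are row medians, and grey marks less than 2-fold. Ddit4 lies to the right of the ATF4 median of -1.58 and at the far left of the hypoxia row, whose median is 0.53.

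Read as RPKM, the values implied totals of 17506154 reads in WT and 18396840 reads in T136A. All 10 embryonic stem cell markers were at or above 61.0 RPKM in both libraries, and their sum was 4285 RPKM in WT and 4219 in T136A. Within that sum 7 had a log2 ratio below 0, down to Nanog (1.30-fold lower), and 3 above it: Utf1 was 3.01-fold higher (2.86 to 3.17), Tdgf1 1.63-fold and Zfp42 1.58-fold. Of 11 fibroblast markers, which would point to feeder cells, 8 were found, 3 of them at 0 in WT and 0 of them at 0 in T136A. Their sum was 4.79 RPKM in WT and 8.35 in T136A. Only Thy1 (2.50 and 5.32 RPKM) and Pdgfrb (1.43 and 1.97 RPKM) reached 1 RPKM. Fbn1 (0.353 and 0.354 RPKM) and Col1a1 (0.470 and 0.530 RPKM) had fold intervals that include 1. Postn and Tagln had 0 reads in WT and 1 read each in T136A. The 11 markers of differentiated lineages summed to 22.1 and 21.7 RPKM, with Pax6 at 0 in both libraries, but members differed in opposite directions. Of the 6 that reached 1 RPKM, Sox1, a neural marker, was at 7.77 RPKM in WT and 1.55 in T136A, a fold of 0.200 (0.165 to 0.240), and the 5 others were above 0 in log2 ratio, among them Gata6 (0.805 and 1.68 RPKM), Sox17 (0.551 and 1.38 RPKM) and Krt8 (6.04 and 8.52 RPKM). Gata6 and Sox17 reached 1 RPKM in T136A alone, so the filter fixed their ratios above 0. The part of feeder or differentiated cells, or of a shift among these markers, in the differences above was not tested. In these bulk samples, fewer cells of a type and less RNA per cell cannot be told apart.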

How the data were processed

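The authors deposited 1 value per Ensembl gene for each of the 2 libraries. No label or header names the unit. The deposited values were read as RPKM. A fit to exon length cannot tell the unit, so the total reads assume RPKM. Times the union exon length in GENCODE M21, values were whole multiples of a constant fitted to each library and taken as 1 read. This held (within 0.01) for 89.9% of positive values in WT and 90.0% in T136A. That share was 97.8% to 100.0% of genes at or above 1 RPKM on chromosomes 1 to 13 and X, and 33.3% to 60.7% on 14 to 19. For most of the rest, a smaller or larger whole length made both libraries' reads whole within 0.0001. The smallest such length was used, which gives the widest interval; this step was chosen after seeing the data. Reads were then known for 12295 of 12320 genes. A multiple of that length would fit too, so reads of Rictor, Mlst8 and Tsc2 are the smallest possible ones.

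The submitters' processing notes name CASAVA 1.8 and mm9, with no role. The aligner, counter and rule for strand were not given in the sources used here. Trizol RNA went into Illumina TruSeq libraries, per the labels' protocols. Coordinates are GRCm38, from GENCODE M21 and RefSeq; none came from the deposited files. Symbols matched 25696 of 25749 identifiers, and Samtor and Kics2 were found under older symbols. Fold intervals are exact conditional binomial (Clopper-Pearson, scipy 1.17.1); level intervals are exact Poisson. Reads carry no molecular identifiers and are not independent molecules. With 1 library a group, no test was run.

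The 10 genes and the lists were chosen with earlier results of these data known. Named genes were the 10, pathway genes at least 2-fold apart, the ends of each list (2 at each end for target lists), and Eif4ebp1, Samtor, Atf4, Ddit3, Trib3, Tsc1 and Rheb. The log2 ratio and the 2-fold calls were tested on simulated reads. The recovery of reads and the intervals were not. Not found were Igfbp1, Mt2, Col3a1, Lum and Dcn. One named gene of the pathway is counted in its list and otherwise not reported here.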

Additional observations from a re-analysis of the deposited data

How the results depend on the processing

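No paired analysis was possible because each group had 1 library. The plain ratio with nothing added was chosen after seeing the data. Among 61 values of counts and of the median under the alternatives, 51 stayed within 1.5 times the count or within the counting limits of the median. With 0.1 added, 1 of the 10 genes was at least 2-fold higher, 5 other pathway genes were lower, and over all genes 727 were lower and 723 higher. With 5 added, 0 of the 10 were lower, and over all genes 114 were lower and 101 higher. A minimum of 5 RPKM left 209 genes higher over all. With nothing added, 1 of the 10 was higher and 5 other pathway genes were lower. Of the 47 genes named by rule, 9 passed from one side of a 2-fold difference to the other in some setting and 0 changed sign; under the 3 scalings only Bnip3l did so. A constant of 5 pulls log2 ratios of weak genes toward 0 by construction. Sesn3 ranged from -0.78 with nothing added to -0.13 with 5 added.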
